A study of Mus musculus with 6 samples.

Results

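Imprinted gene clusters are stretches of the genome in which some genes are read from the maternal copy alone and others from the paternal copy alone. To examine 5-hydroxymethylcytosine (5hmC) at these loci with and without Tet1, the deposited 5hmC regions whose midpoint fell in 1 of 9 windows were taken. The rule used position only (build mm9) and found 385 of 192196 regions. There were 108 regions in the Igf2-H19-Kcnq1 window (chromosome 7, 149.70 to 150.75 Mb) and 101 in the Dlk1-Meg3 window (chromosome 12, 110.60 to 111.30 Mb). There were 75 in the Peg10-Sgce window (chromosome 6, 4.45 to 5.00 Mb) and 36 in the Snrpn-Ube3a-Ndn window (chromosome 7, 66.40 to 69.60 Mb). The Igf2r window (chromosome 17, 12.80 to 13.00 Mb) had 27, and the Gnas window (chromosome 2, 174.05 to 174.25 Mb) had 21. The Grb10 window (chromosome 11, 11.80 to 12.00 Mb) had 8, the Mest window (chromosome 6, 30.65 to 30.75 Mb) had 5 and the Peg3 window (chromosome 7, 6.6 to 6.8 Mb) had 4. By midpoint or by any overlap with a window, the members were the same.

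The study compared Tet1 knockout (KO) with wild-type (WT) mice, with 2 5hmC libraries of each genotype, called sample 1 and sample 2 in the labels. The labels give brain as the material, while the text of the study describes astrocytes cultured from the cortex and hippocampus of newborn pups of a constitutive knockout. Whether the 2 libraries of a genotype came from separate animals or cultures was not stated, so the tests measure the spread between libraries, which may be technical. Sex, strain and the allele of the knockout were not given in the labels. Counts of 5hmC hold no expression values, so the cell type was not checked against markers.

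In an imprinted cluster, a stretch of DNA that is methylated on 1 parental chromosome usually sets which copy of the neighbouring genes is active, often through a long non-coding RNA. Tet enzymes oxidise the methyl group of 5-methylcytosine to give 5hmC, and Tet1 is known for its part in erasing imprints in germ cells. Many of these genes are active in brain, among them Ube3a, a ubiquitin ligase whose maternal copy is the active one in neurons, and Grb10, an adaptor that dampens insulin receptor signalling. The counts do not separate the parental chromosomes, so each value is the sum of both.

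Total counts ran from 16819455 to 19288900 per library. A single region elsewhere in the genome held between 8.52% and 27.3% of them, so levels are given as CPM, the count per 1000000 of a library size adjusted by TMM, a scaling that trims extreme regions. In each pair of values below, sample 1 comes first. The lowest scaled library size, 15380804 for KO sample 2, made 3 counts worth 0.195 CPM there, and 3 counts were worth 0.141 CPM in KO sample 1. Of the 385 members, 338 passed the low-count filter of the test. The others were not tested one by one, but their counts are in the sums over windows. Summed over all members, the KO libraries had 1174 and 1229 CPM and the WT libraries 1169 and 1228. The genotypes overlapped in this sum, and the higher library of each was sample 2.

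Of the 36 members in Snrpn-Ube3a-Ndn, 14 lay in a run between 67005107 and 67048410 on chromosome 7, a stretch of 43.3 kb, in which region starts followed each other at nearly even steps. Of the 13 steps, 10 were single steps with a median of 2534 bp, 2 were close to 2 times that and 1 was close to 3 times. Divided by their multiple, the steps ran from 2486 to 2582 bp. The run was noticed after the data were seen, and its regions were linked wherever starts were within 8 kb.

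Among the listed genes of this window, Snrpn and Ube3a are neighbours in GRCm38.p6, a later build than that of the regions. Between them lie copies of Snord116, a small nucleolar RNA (snoRNA) gene made from the paternal transcript that starts at Snrpn and whose loss is linked to Prader-Willi syndrome. In GENCODE M21 on GRCm38 there are 17 Snord116 copies on the minus strand, and the 16 steps between them had a median of 2532 bp. Of these, 15 were single steps from 2509 to 2558 bp and 1 was a double step of 5057 bp. Coordinates were not carried from one build to the other, so the 14 regions were not placed on the copies, and only the sizes of the steps were set side by side. The copies are shown because reads from near-identical sequence can be placed on more than 1 of them. All 17 are 94 bases long, 14 share 1 sequence (shown for Snord116l1), and Snord116l12 differs from it by C74A, T77A and C81A, counted from the 5′ end with the base of Snord116l1 first. Capitals mark the C box (searched as TGATGA) and the D box (searched as CTGA, taking the match nearest the 3′ end), the motifs that define this class of snoRNA, and both were found in 17 of 17 copies.
Snord116l1: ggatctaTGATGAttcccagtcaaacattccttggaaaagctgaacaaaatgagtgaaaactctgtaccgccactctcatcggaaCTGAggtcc
Snord116l12: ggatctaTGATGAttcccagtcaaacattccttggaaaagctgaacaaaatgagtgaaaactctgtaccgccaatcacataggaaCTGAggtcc

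The windows differed widely in how much 5hmC they held. Regions lay closest together in Dlk1-Meg3, at 144 regions per Mb, followed by Peg10-Sgce at 136, Igf2r at 135, Gnas at 105 and Igf2-H19-Kcnq1 at 103. These 5 windows were above the 78.5 regions per Mb of the autosomes, each taken from its first to its last region. Mest had 50 per Mb, Grb10 had 40 and Peg3 had 20. The Snrpn-Ube3a-Ndn window was the sparsest, with 11.25 regions per Mb, and its regions covered 0.282% of its length against 4.42% for the autosomes. The Igf2r window, which holds the receptor that clears insulin-like growth factor 2, had 9.02% of its length in regions.

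**Figure D1:**
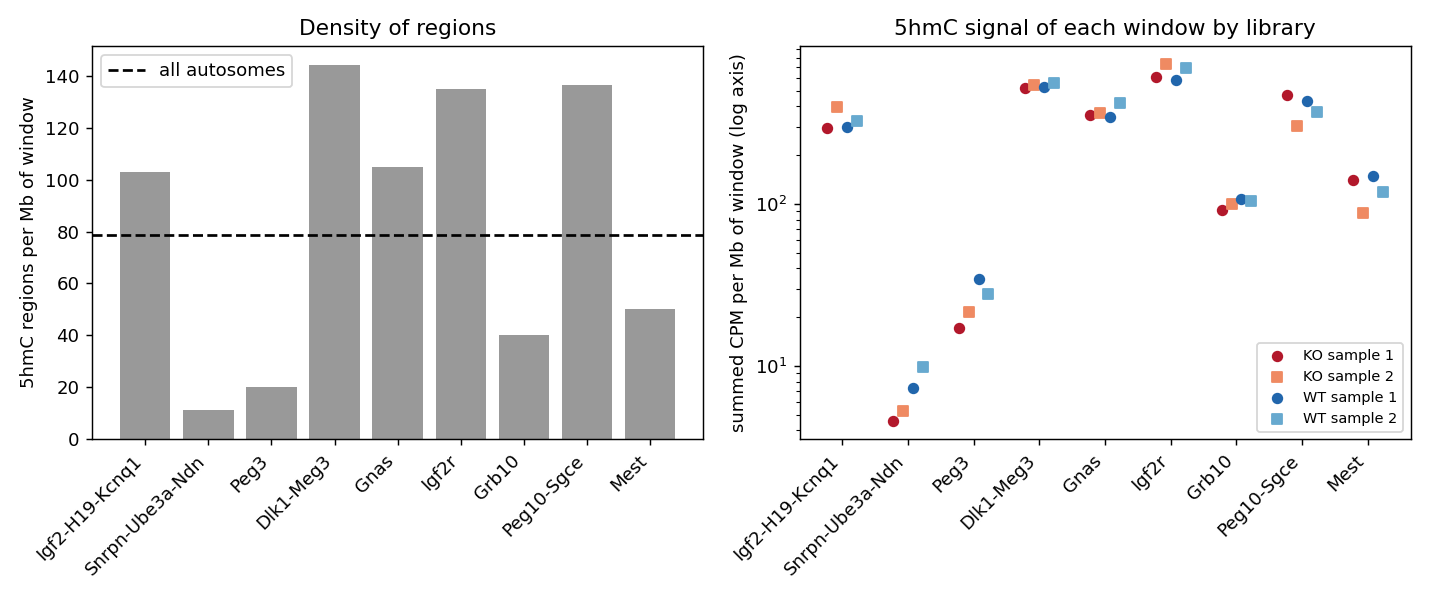
Left, 5hmC regions per Mb in each of the 9 imprinted windows (bars, from 0), with the autosomal value as a dashed line. Right, CPM summed over the regions of each window and divided by its length in Mb, on a log axis, with a point for each of the 4 libraries; Snrpn-Ube3a-Ndn and Peg3 are lowest in all 4, and in both windows the KO points lie below the WT points.

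The signal per length followed the same split. Igf2r had 603 and 732 CPM per Mb of window in KO and 581 and 689 CPM per Mb in WT. Dlk1-Meg3 had 522 and 538 CPM per Mb in KO and 524 and 561 CPM per Mb in WT. At the other end, Snrpn-Ube3a-Ndn had 4.54 and 5.24 CPM per Mb in KO and 7.26 and 9.80 CPM per Mb in WT. Peg3 had 17.1 and 21.5 CPM per Mb in KO and 34.2 and 27.6 CPM per Mb in WT. In each library the 5 dense windows lay above Mest and Grb10, and those above Peg3 and Snrpn-Ube3a-Ndn. Mest and Grb10 themselves were not in the same order in every library, since Mest had 87.8 CPM per Mb and Grb10 had 99.8 CPM per Mb in KO sample 2.

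Single regions were less different. Among members that passed the filter, the median level of a region (the mean of the medians of the 4 libraries) was 3.57 CPM in Igf2r and 2.84 CPM in Dlk1-Meg3. It was between 2.05 and 2.31 CPM in Grb10, Igf2-H19-Kcnq1, Gnas, Peg3, Peg10-Sgce and Mest, beside 2.79 CPM over autosomal regions. In Snrpn-Ube3a-Ndn it was 1.33 CPM over the 12 of 36 members that passed, and 0.294 CPM over all 36. Regions in that window were short, with a median width of 221.5 bp against 437 bp over the autosomes. Per kb of region width, the median over members that passed ran from 4.68 CPM per kb in Snrpn-Ube3a-Ndn to 7.36 in Peg3, where it rests on 2 regions. Peg3 thus lay above the 6.11 CPM per kb of the autosomes, while its level per region lay below the autosomal one. Dlk1-Meg3 had 6.25 CPM per kb, and the other windows lay between 5.02 and 6.08.

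Next, the place of the regions within each window was described in bins of 100 kb counted from the window's low end. In Igf2-H19-Kcnq1, where the gene list holds the growth factor gene Igf2, the non-coding RNA H19 and the potassium channel gene Kcnq1, 24 of 108 regions lay in the bin from 500 to 600 kb. The bin from 200 to 300 kb held 1 region, and neighbouring midpoints were up to 104 kb apart. The densest bin had 81.9 and 123 summed CPM in KO and 89.5 and 97.1 summed CPM in WT. In Dlk1-Meg3, named for a Notch-related membrane protein and a non-coding RNA, the first 100 kb held 23 of 101 regions. That bin had 137 and 145 summed CPM in KO and 121 and 138 summed CPM in WT. The bin from 500 to 600 kb held 21 regions, with 70.1 and 74.6 summed CPM in KO and 81.3 and 83.3 summed CPM in WT, and there both KO libraries lay below both WT libraries. This bin was picked out after its values were seen and was not tested. Other bins went the other way. In Igf2-H19-Kcnq1, the bin from 800 to 900 kb had 56.7 and 65.9 summed CPM in KO and 51.7 and 54.7 summed CPM in WT. How often bins of 100 kb lie apart was not counted. Among clusters and tiles of 250 kb, 12.5% lay below in KO and 9.02% above. In Grb10, all 8 regions lay in the first of its 2 bins. In Igf2r, 20 of 27 lay in the second bin. In Snrpn-Ube3a-Ndn, 14 of 32 bins held no region, while a single bin held 14 of the 36 regions.

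**Figure D2:**
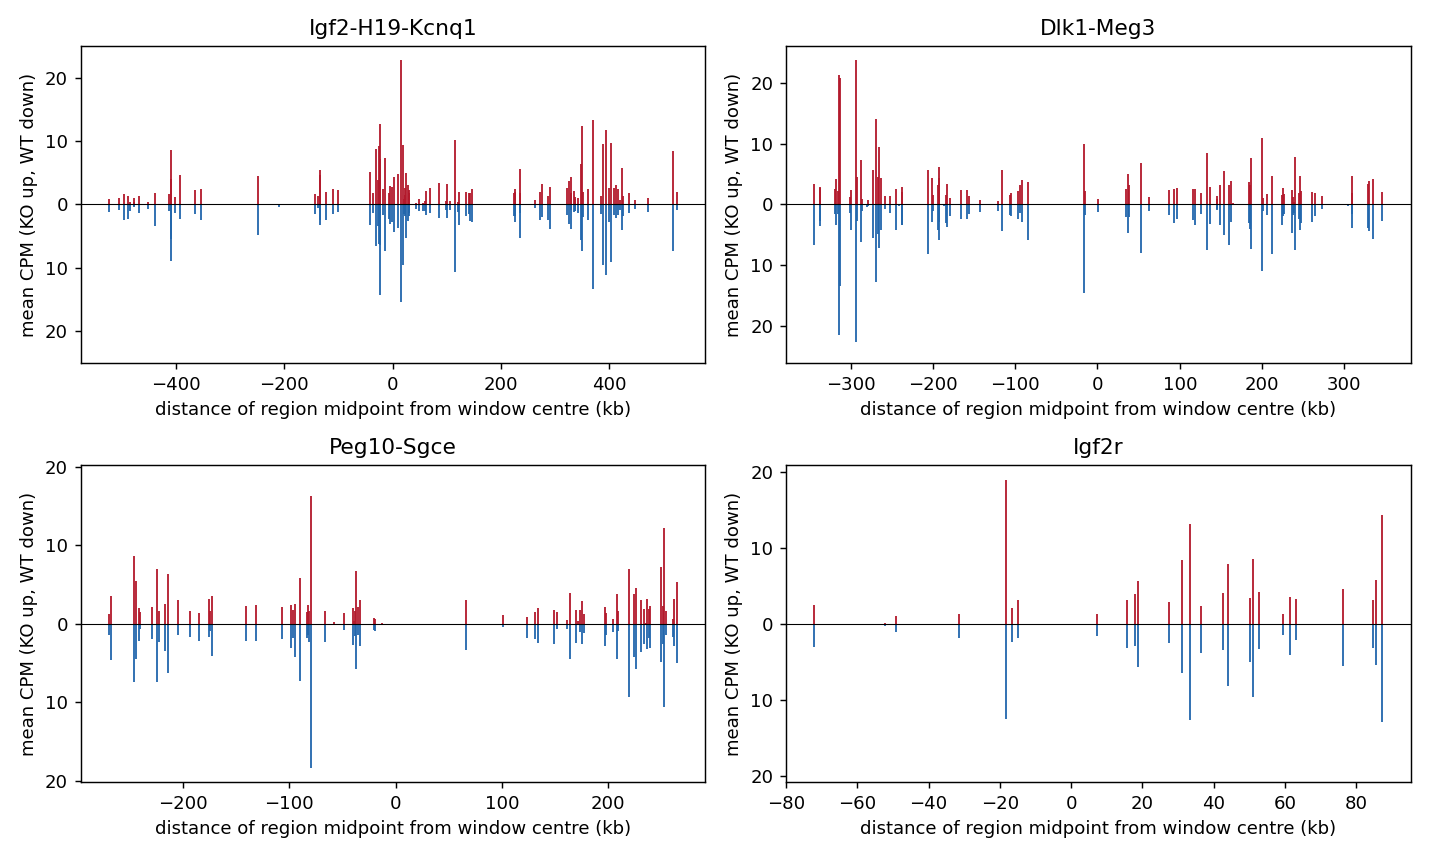
Mean CPM of each region (KO upward in red, WT downward in blue, each the mean of 2 libraries) against the distance of its midpoint from the window's centre in kb, for the Igf2-H19-Kcnq1, Dlk1-Meg3, Peg10-Sgce and Igf2r windows. The same regions stand out in both genotypes, such as the one near the centre of Igf2-H19-Kcnq1 with 22.8 CPM in KO and 15.4 CPM in WT.

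To ask whether loss of Tet1 altered 5hmC over a whole cluster, counts were summed per window and tested together with 250 kb tiles of the rest of the genome. None of the 9 clusters passed at an adjusted p under 0.05 (edgeR's quasi-likelihood test, Benjamini-Hochberg over 9137 rows), and the share of all rows called was 0%. At an unadjusted p under 0.05, 1 cluster was found, Snrpn-Ube3a-Ndn, which was lower in KO, against 0.733% of all rows in either direction and 0.624% lower in KO. Both KO libraries were below both WT libraries in 3 clusters, Snrpn-Ube3a-Ndn, Peg3 and Grb10, and above both in 0. Of all rows, 12.5% lay below and 9.02% above in this sense.

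The Snrpn-Ube3a-Ndn window, which holds the splicing factor gene Snrpn, Ube3a and the neuronal growth suppressor Ndn, had 14.5 and 16.8 CPM in the KO libraries. The WT libraries stood higher, at 23.2 and 31.3 CPM. Means ± SD of the 2 libraries were 15.7 ± 1.58 for KO and 27.3 ± 5.73 for WT. The fitted log2 fold change was -0.80 (standard error, SE, 0.29), and its 95% interval ran from -1.503 to -0.10. The edgeR unadjusted p was 0.0310 and the adjusted p was 1.00. By DESeq2 the unadjusted p was 0.0198. With the replicate block the edgeR unadjusted p was 0.00589, in a fit where 2.53% of all rows were under 0.05. Neither passed the adjusted threshold. These sums rested on 310 and 258 counts in KO and 435 and 539 in WT. When a KO library was left out, the adjusted p of this window was 0.0282 without KO sample 1 and 0.0494 without KO sample 2, in fits that called 24.98% and 1.11% of all rows and that assume the lone KO library to vary as the WT pair does. With either WT library left out it was 1.00, and with total-count scaling the edgeR unadjusted p was 0.253.

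The Peg3 window holds the zinc finger gene Peg3, which is read from the paternal copy. Its 4 regions summed to 73 and 66 counts in KO and 128 and 95 in WT, which was 3.42 and 4.29 CPM against 6.84 and 5.52 CPM. The log2 fold change was -0.68 ± 0.44 (SE), with a 95% interval from -1.76 to 0.40. The edgeR unadjusted p was 0.174, so at this depth the difference was not separable from the spread. In Grb10 the sums were 18.3 and 19.96 CPM in KO and 21.4 and 20.8 CPM in WT, and the log2 fold change was -0.14 ± 0.26 (SE). Without its strongest region, the Grb10 value turned to 0.06.

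The other 6 clusters overlapped between genotypes. Dlk1-Meg3 had 365 and 377 CPM in KO and 367 and 392 CPM in WT. Its log2 fold change was -0.03, with a 95% interval from -0.36 to 0.30. Igf2r had 121 and 146 CPM in KO and 116 and 138 CPM in WT, with an interval from -0.32 to 0.47. Gnas, which encodes the stimulatory G protein subunit that links hormone receptors to cyclic AMP, had 70.7 and 73.0 CPM in KO and 69.1 and 83.9 CPM in WT, with an interval from -0.48 to 0.30. For Dlk1-Meg3, Igf2r and Gnas, a change of the scaled window sum by a log2 of 0.5 or more lay outside the interval. This held in either direction, and a change shared with the rest of the genome is not covered.

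Igf2-H19-Kcnq1, Peg10-Sgce and Mest gave wider intervals, and in each the 2 KO libraries lay apart from each other. Igf2-H19-Kcnq1 had 310 and 417 CPM in KO, on either side of 314 and 341 CPM in WT, with a log2 fold change of 0.15 (95% interval -0.29 to 0.60). Peg10-Sgce, which holds the retrotransposon-derived gene Peg10 and the sarcoglycan gene Sgce, had 257 and 165 CPM in KO and 237 and 204 CPM in WT. Its log2 fold change was -0.06, with an interval from -0.62 to 0.50. Mest, which encodes a protein of the hydrolase fold, had 14.02 and 8.78 CPM in KO and 14.96 and 11.8 CPM in WT, with an interval from -1.15 to 0.69. Thus KO sample 2 was the highest library in Igf2-H19-Kcnq1 and the lowest in Peg10-Sgce and Mest.

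**Figure D3:**
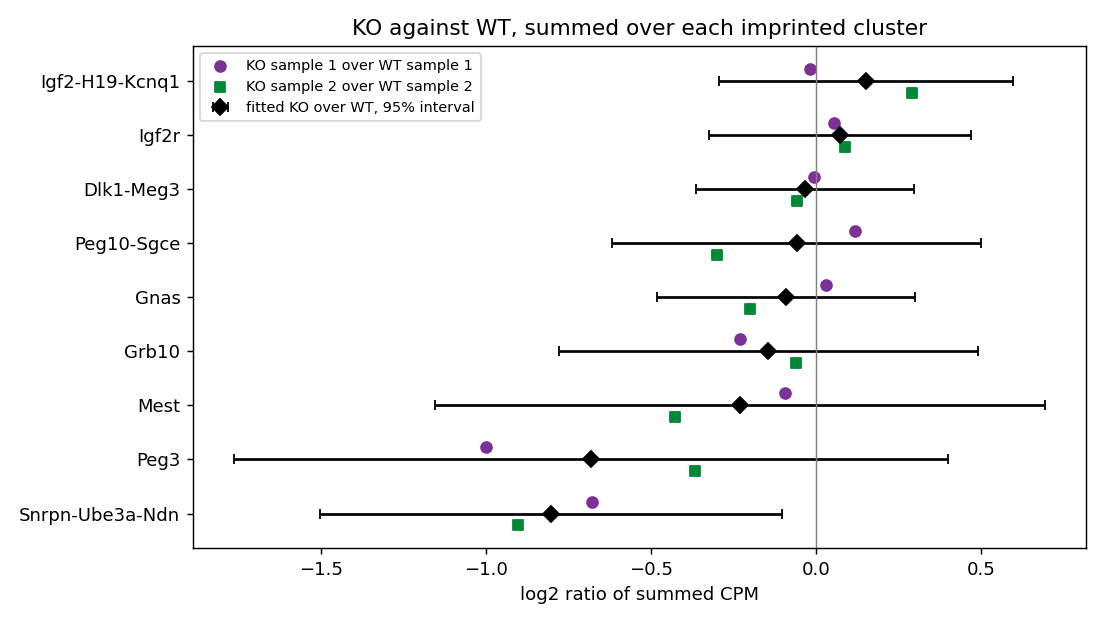
Log2 ratio of KO to WT of the CPM summed over each cluster: fitted value with its 95% interval (diamonds, 2 against 2 libraries) and the ratios within sample 1 (circles) and within sample 2 (squares). The interval of Snrpn-Ube3a-Ndn, from -1.503 to -0.10, is the single one that does not reach 0.

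The libraries of 1 genotype also differed from each other. The log2 ratio of KO sample 2 to KO sample 1 ran from -0.68 in Mest and -0.64 in Peg10-Sgce to 0.43 in Igf2-H19-Kcnq1. That of WT sample 2 to WT sample 1 ran from -0.34 in Mest to 0.43 in Snrpn-Ube3a-Ndn. Both ratios had the same sign in all clusters but Peg3 and Grb10. Over 8734 autosomal tiles of 250 kb, the middle 90% of the KO ratio spanned -1.48 to 0.67 and that of the WT ratio -0.60 to 0.32, so the ratios of the clusters lay within these ranges except for Snrpn-Ube3a-Ndn in WT. Within sample numbers, the log2 ratio of KO to WT was -0.68 and -0.90 in Snrpn-Ube3a-Ndn and -0.999 and -0.36 in Peg3. Over the same tiles, the middle 90% of this ratio spanned -0.47 to 0.46 for sample 1 and -1.10 to 0.45 for sample 2. The sample 1 ratios of these 2 windows lay outside that range, and the sample 2 ratios lay inside. The ratio of KO to WT had opposite signs in the 2 pairs for Igf2-H19-Kcnq1, Gnas and Peg10-Sgce, and the same sign for the other clusters. The part of the sample number in these values was not tested.

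To identify single regions with altered 5hmC, each member was then tested in the fit of all 176957 regions that passed the filter. Of 338 members, 0 passed at an adjusted p under 0.05 (edgeR, Benjamini-Hochberg over all tested regions), as was so for 0% of all regions. By DESeq2 the count was also 0, where 6 of all regions were called, and 5 members (1.48%) had an unadjusted p under 0.05 against 1.97% of all regions. By edgeR at an unadjusted p under 0.05 there were 7 members, or 2.07%, against 2.81% of all tested regions. Of these, 3 were higher in KO (1.54% of all regions were) and 4 were lower (1.27% of all regions were). Both KO libraries were above both WT libraries in 44 members and below both in 51, that is 13.0% and 15.1% of the members against 15.3% and 15.6% of all regions. The median log2 fold change was -0.02 over the members and 0.02 over autosomal regions. These shares of the members were close to or under those of all regions. Without KO sample 1, edgeR called 30 of 343 members (8.75%) beside 7.52% of all regions, and without KO sample 2 it called 3 of 346 (0.867%) beside 1.09%.

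**Figure D4:**
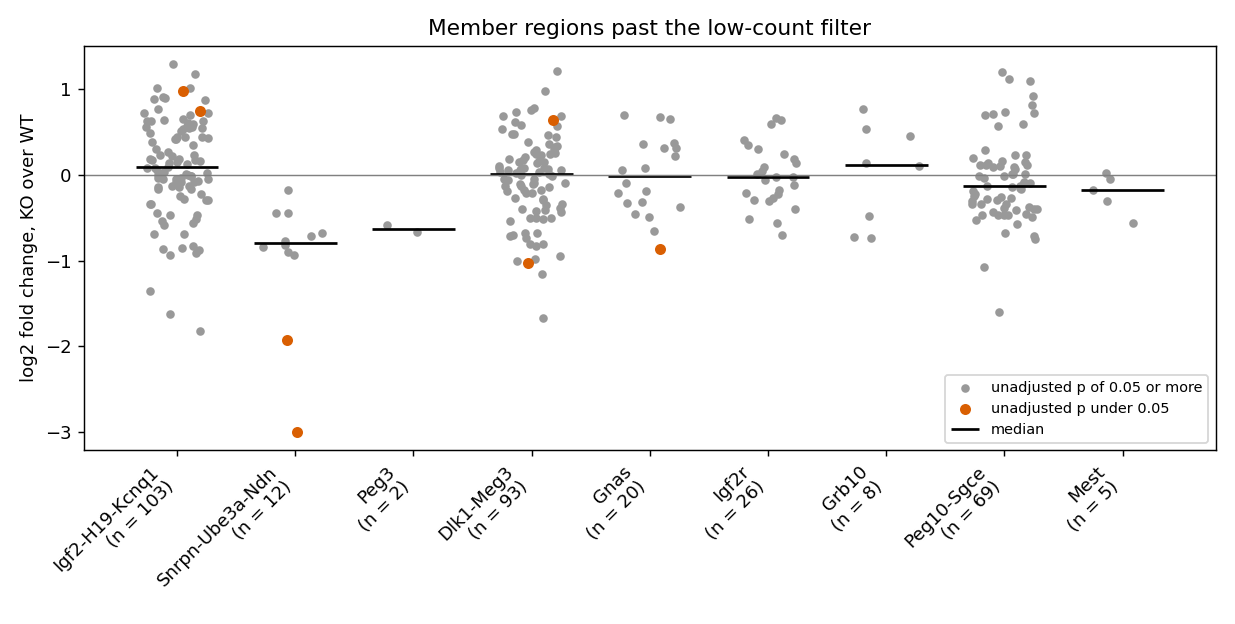
Log2 fold change of KO over WT for each of the 338 member regions that passed the low-count filter, by cluster, with medians as lines. Orange points mark the 7 regions at an unadjusted p under 0.05 by edgeR; 2 of them, the lowest on the plot, are in Snrpn-Ube3a-Ndn.

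Among members higher in KO, that of lowest p was chr7:150574667-150575592 (926 bp) in Igf2-H19-Kcnq1. It had 10.4 and 14.4 CPM in KO and 6.95 and 7.91 CPM in WT. The log2 fold change was 0.74 ± 0.31 (SE). Both KO libraries were above both WT libraries, and the edgeR unadjusted p was 0.0321. In Dlk1-Meg3, chr12:110636943-110638231 (1289 bp) had 20.7 and 20.8 CPM in KO and 13.6 and 13.1 CPM in WT. Here the libraries of each genotype lay close together, and the log2 fold change was 0.63 ± 0.27 (SE), with an edgeR unadjusted p of 0.0348. The region chr7:149832659-149833081 in Igf2-H19-Kcnq1 had 3.33 and 6.05 CPM in KO and 2.57 and 2.15 CPM in WT, with a log2 fold change of 0.98 ± 0.46 (SE). None of these differences passed the adjusted threshold with all 4 libraries. Without KO sample 2, the log2 fold changes of the Igf2-H19-Kcnq1 regions were 0.49 at chr7:150574667-150575592 and 0.50 at chr7:149832659-149833081, with edgeR unadjusted p of 0.0704 and 0.284.

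Among members lower in KO, the lowest p was at chr7:67015295-67015488 (194 bp) in Snrpn-Ube3a-Ndn. It had 4 counts in each KO library and 20 and 44 counts in WT, or 0.188 and 0.260 CPM against 1.07 and 2.56 CPM. The log2 fold change was -3.00 ± 0.91 (SE), with an edgeR unadjusted p of 0.00462 and an adjusted p of 1.00. The region chr7:67038074-67038321 in the same window had 10 and 6 counts in KO and 27 and 32 in WT, and a log2 fold change of -1.92 ± 0.81 (SE). Neither KO library reached the filter's minimum count of 10 at chr7:67015295-67015488, nor did KO sample 2 at chr7:67038074-67038321. Both were thus admitted by their WT counts, and would not have been tested had WT been as low as KO. Without the filter, their log2 fold changes were -2.99 and -1.91, with edgeR unadjusted p of 0.00447 and 0.0332. Neither region was in the test that required a mean count of at least 20. In Dlk1-Meg3, chr12:111109168-111109757 had 3.84 and 2.60 CPM in KO and 4.76 and 8.49 CPM in WT, and its log2 fold change was -1.03 ± 0.42 (SE). In Gnas, chr2:174162263-174163152 had 3.52 and 2.54 CPM in KO and 5.24 and 5.82 CPM in WT, and its log2 fold change was -0.86 ± 0.40 (SE). In all 4 regions both KO libraries were below both WT libraries, as was so for 15.6% of all tested regions. The 4 were picked by low p, which favours this order, so it is no further support. None of the differences passed the adjusted threshold with all 4 libraries. The value at chr7:67015295-67015488 was -3.48 without WT sample 1 and -2.24 without WT sample 2, where the edgeR unadjusted p was 0.0836. That at chr12:111109168-111109757 was -1.38 without WT sample 1 and -0.56 without WT sample 2, where the edgeR unadjusted p was 0.438. The 7 members at an unadjusted p under 0.05 were picked by p in the fit of these same libraries. Leaving out a library is therefore not an independent check of them. All 7 kept the sign of their log2 fold change with each library left out, but its size moved. Not all stayed under that p in each of these fits.

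The region of lowest p in the remaining windows had an unadjusted p of 0.05 or more. In Igf2r, Grb10 and Peg3 it was also the strongest region of the window. In Igf2r it was chr17:12881243-12882426, with 17.6 and 20.4 CPM in KO and 12.2 and 13.0 CPM in WT and a log2 fold change of 0.59 ± 0.28 (SE). In Grb10 it was chr11:11839499-11840033, with 3.52 and 4.55 CPM in KO and 6.68 and 6.57 CPM in WT and a log2 fold change of -0.72 ± 0.37 (SE). Their 95% intervals were -0.0043 to 1.18 and -1.501 to 0.06. In both, the genotypes did not overlap. In Peg10-Sgce it was chr6:4519859-4520299, with 3.99 and 2.08 CPM in KO and 1.07 and 1.75 CPM in WT. In Mest it was chr6:30650708-30651118, with 2.16 and 1.69 CPM in KO and 3.31 and 2.39 CPM in WT. In Peg3 it was chr7:6732826-6733131, with 1.92 and 1.56 CPM in KO and 3.79 and 1.75 CPM in WT, where the genotypes overlapped.

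The strongest region of each window was also followed, since it was chosen without regard to genotype. Over all windows the highest was chr12:110654864-110657334 in Dlk1-Meg3 (2471 bp), with 16.9 and 30.4 CPM in KO and 20.6 and 24.5 CPM in WT. The KO libraries enclosed the WT libraries there. In Igf2-H19-Kcnq1 it was chr7:150240034-150242385 (2352 bp), with 18.0 and 27.6 CPM in KO against 15.4 and 15.5 CPM in WT. Both KO libraries were above both WT libraries, and the log2 fold change was 0.56 with a 95% interval from -0.06 to 1.18. In Peg10-Sgce it was chr6:4644578-4646410, with 21.5 and 11.1 CPM in KO and 21.6 and 15.1 CPM in WT. In Gnas it was the widest member, chr2:174158978-174161947 (2970 bp), with 15.99 and 10.01 CPM in KO and 13.6 and 18.9 CPM in WT. In Mest it was chr6:30666494-30667218, with 5.91 and 3.12 CPM in KO and 5.18 and 5.06 CPM in WT. In Snrpn-Ube3a-Ndn it was chr7:68990712-68991161, with 1.5 and 2.60 CPM in KO and 2.99 and 3.96 CPM in WT. Both KO libraries were below both WT libraries in that last one, and the 95% interval of its log2 fold change ran from -1.83 to 0.29. In Dlk1-Meg3, Peg10-Sgce, Gnas, Mest and Peg3 the strongest region overlapped between genotypes. Both KO libraries were above both WT libraries at that of Igf2r and below both at that of Grb10, with values given above.

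Of the 36 members in Snrpn-Ube3a-Ndn, 14 had both KO libraries below both WT libraries and 2 had both above, without any filter on counts. Over all 192196 regions these shares were 16.4% and 14.7%, and over the 176957 that passed the filter 15.6% and 15.3%. Regions under the filter thus lay below more often than above. Of the 36 members only 12 passed, so the shares over all regions are not a matched background. Regions in this window had few counts, with a median over regions of 4.5 per library, so that many of the orders rest on a handful of reads.

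Summed over the evenly spaced run of 14, counts were 136 and 126 in KO and 223 and 291 in WT. This was 6.38 and 8.19 CPM in KO and 11.9 and 16.9 CPM in WT, with a log2 ratio of the means of -0.99. The ratio was -0.90 within sample 1 and -1.05 within sample 2. Of the 14 regions, 8 had both KO libraries below both WT libraries and 0 had both above. Among all regions without a filter, 16.4% lay below and 14.7% above, but only 7 of the 14 passed the low-count filter. Over the other 22 regions of the window the sums were 8.16 and 8.58 CPM in KO and 11.3 and 14.4 CPM in WT, a log2 ratio of -0.62. In them, 6 had both KO libraries below and 2 had both above. Both parts of the window thus had lower sums in the KO libraries, and neither was tested because the run was chosen after the data were seen. The regions of the run were 180 to 313 bp wide, and how the authors placed reads with several matches was not stated. Its part in these values was not tested.

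**Figure D5:**
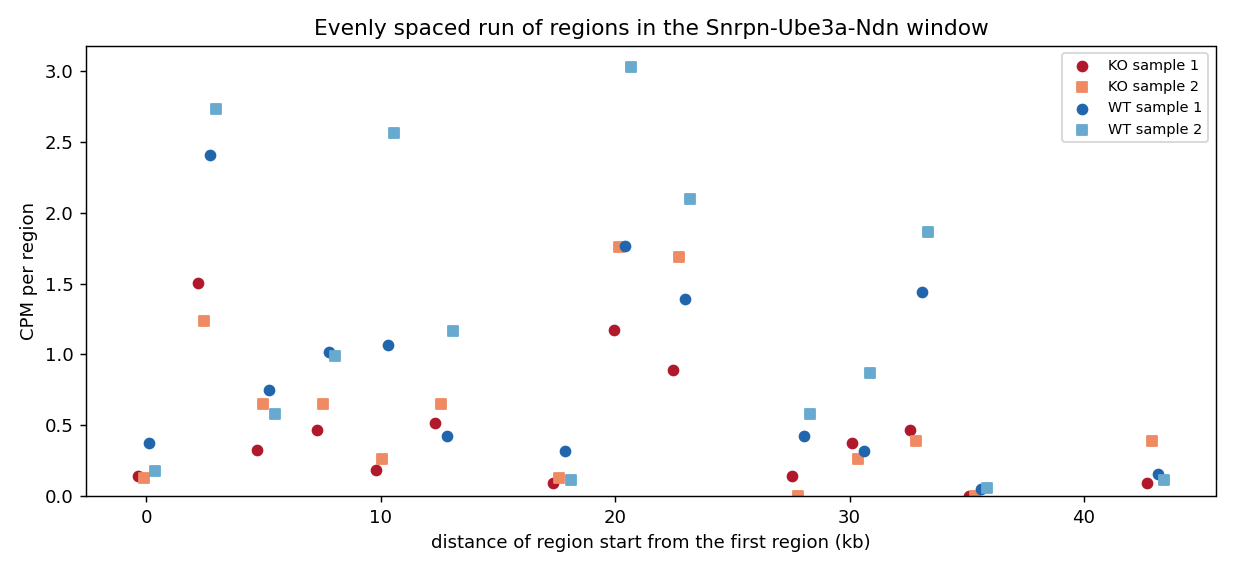
CPM of each of the 14 evenly spaced regions in the Snrpn-Ube3a-Ndn window, in the 4 libraries, against the distance of the region's start from the first start in kb (points of the 4 libraries are shifted sideways to keep them apart). Steps of about 2534 bp and gaps of 2 or 3 steps can be seen, and in 8 of the 14 regions both KO points lie below both WT points. Of all regions without a count filter, 16.4% lay below in this sense.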

How the data were processed

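DNA carrying 5hmC was labelled chemically with biotin, captured and sequenced. The authors deposited raw read counts for 1 shared list of regions in the 4 5hmC libraries; the 2 input libraries were not analysed here. Per the labels, the build was mm9 and Bowtie2 2.2.6 was used. The region caller, counting program, removal of duplicates and placement of reads with several matches are not given in the sources used here. Intervals cover the modelled spread between libraries, and floors cover counting error only.

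filterByExpr set aside low-count regions (minimum count 10, minimum total 15), libraries were scaled by TMM, and KO was compared with WT by edgeR 4.0.16 (quasi-likelihood test, R 4.3.3) with Benjamini-Hochberg adjustment over all 176957 regions and a threshold of 0.05. Standard errors are the absolute log2 fold change divided by the root of F. Window sums were tested in a table that also held 250 kb tiles, with library sizes from the fit of regions. With 2 libraries per genotype, exact permutation gives no p below 0.333, so it was not used. Scripts were tested on simulated counts. Alternatives were DESeq2 1.42.0, other scalings, filters and tiles, a replicate block, and leaving out libraries. Named regions were the strongest and the lowest p per window, and the 3 of lowest p in each direction. Windows, lists and tests were chosen with earlier results of these data known. Of 59 listed genes, 57 were found on the window's chromosome in RefSeq (GRCm38.p6), which was used for their order only; an annotation or sequence of mm9 was not used here, so regions were not assigned to genes or exons. Figures were drawn with matplotlib 3.10.9.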

Additional observations from a re-analysis of the deposited data

How the results depend on the processing

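The count of 0 members at adjusted p under 0.05 was kept with DESeq2, total-count scaling, no filter, a mean count of at least 20, autosomes only and the replicate block. It ran from 0 to 30 when a library was left out, with 30 of 343 members without KO sample 1 (in a fit that called 7.52% of all regions), 3 of 346 without KO sample 2 and 0 without either WT library. With 1 KO library left, its spread is assumed equal to that of the WT pair. Members at unadjusted p under 0.05 were 7 (2.07%, against 2.81% of all regions), 2 with total-count scaling (0.592% against 1.12%), 12 with the replicate block (3.55% against 3.92%), and 1 to 69 with a library left out (0.291% to 20.1%, against 0.575% to 23.4%). The sample numbers are not stated to pair libraries (correlation of their deviations 0.174), and the block changed no call of a member or cluster. With all 4 libraries, the count of clusters called was 0 under every setting, where at most 19 of all rows (0.208%, replicate block) were called. It was 0 to 3 with a library left out: Igf2-H19-Kcnq1, Snrpn-Ube3a-Ndn and Peg10-Sgce without KO sample 1 (24.98% of all rows called), Snrpn-Ube3a-Ndn without KO sample 2 (1.11%), and 0 without either WT library (0%).

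The log2 fold change of a cluster turned in sign for Peg10-Sgce with total-count scaling (0.016), for Grb10 without its strongest region (0.057), and, as a median over regions, for Dlk1-Meg3 (0.0053), Igf2r (-0.027) and Grb10 (0.119). The Snrpn-Ube3a-Ndn value moved to -0.99 for the evenly spaced run and -0.62 without it, both added after the data were seen. With a library left out, it ran from -1.002 to -0.57 in Snrpn-Ube3a-Ndn, -0.85 to -0.52 in Peg3, -0.21 to -0.0818 in Grb10, -0.0811 to 0.0169 in Dlk1-Meg3, -0.22 to 0.0551 in Gnas, -0.0727 to 0.21 in Igf2r, -0.0784 to 0.35 in Igf2-H19-Kcnq1, -0.41 to 0.22 in Peg10-Sgce and -0.61 to 0.0659 in Mest. Among named regions, those whose sign turned were the strongest of Dlk1-Meg3 (-0.42 to 0.44), Peg10-Sgce (-0.73 to 0.23), Mest (-0.71 to 0.21) and Peg3 (-1.12 to 0.0077). Other named regions kept their sign but moved, among them the strongest of Gnas (-0.69 to -0.019), Igf2-H19-Kcnq1 (0.22 to 0.84) and Snrpn-Ube3a-Ndn (-1.20 to -0.41), and the lowest p of Peg10-Sgce (0.57 to 1.51) and Mest (-0.78 to -0.30). Apart from the strongest region of each window, the named regions were picked by low p in the fit of these same libraries. Their values with a library left out are therefore not an independent check. The level of a region relative to the autosomal median moved with all regions kept to 0.115 in Snrpn-Ube3a-Ndn, 0.426 in Peg3 and 0.797 in Grb10, and per kb of width to 0.770, 1.21 and 0.893 in these and 0.996 in Igf2r. In Grb10 all 8 regions passed the filter, so its own level stayed at 2.05 CPM. There the move to 0.797 came from the autosomal median, which was 2.79 CPM over regions that passed and 2.57 CPM over all. In Snrpn-Ube3a-Ndn, where 12 of 36 members passed, the level was 1.33 CPM over those that passed and 0.294 CPM over all. In Peg3, where 2 of 4 passed, it was 2.22 and 1.09 CPM. Why the values per kb of width differed was not tested.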
